A study of Mus musculus with 12 samples.

Results

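The MHC class I and immunoproteasome genes described here are Psmb8, Psmb9, Psmb10, Tap1, Tap2, Tapbp, B2m, H2-K1, H2-D1 and Nlrc5, chosen by gene name: 10 of 54532 genes in the deposited abundance table. The choice was made with earlier results of these data known. Of the 10 genes, 9 passed a filter on low counts and stand among 15965 genes tested. The other, H2-K1, did not. The cells were Hepa 1-6, which derive from a mouse hepatoma and are labelled hepatocyte and WT, and their RNA was sequenced in 12 libraries, 3 per group. The siERRa group received an siRNA pool against Esrra, which encodes the orphan nuclear receptor ERRα, the siHCFC1 group a pool against Hcfc1, which encodes the chromatin-associated coregulator HCFC1, and the siERRa+siHCFC1 group (the combined knockdown) both. The siC group received a scrambled pool. All groups were transfected at 100 nM and once more after 48 h (200 nM in total) and collected at 96 h; how that dose was shared between the pools in the combined knockdown is not stated. No label states that a group's 3 libraries were separate cultures, so p-values cover only library-to-library spread, and that spread may be technical.

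MHC class I molecules display peptides from proteins made inside the cell to CD8+ T cells. The peptides are cut by the proteasome, whose constitutive catalytic subunits Psmb6, Psmb7 and Psmb5 can be replaced by the interferon-inducible Psmb9, Psmb10 and Psmb8 to form the immunoproteasome. TAP, a dimer of Tap1 and Tap2, carries peptides into the endoplasmic reticulum, where tapasin (Tapbp) bridges it to heavy chains such as H2-K and H2-D paired with beta-2-microglobulin (B2m). NLRC5 is a transactivator that acts at class I promoters together with the RFX factors. Hepatocytes normally carry little class I at their surface, and many hepatoma lines raise it when given interferon.

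Psmb9, Tap1, Psmb8 and Tap2 are neighbours on mouse chromosome 17 in the mm10 genome that the files use. Psmb9 lies at chr17:34181988-34187764 on the minus strand, Tap1 at chr17:34187553-34197225, Psmb8 at chr17:34197721-34201454 and Tap2 at chr17:34203527-34216321, all 3 on the plus strand. Tapbp, H2-K1 and H2-D1 lie elsewhere on chromosome 17, B2m on chromosome 2, and Psmb10 and Nlrc5 on chromosome 8. RefSeq promoter windows of the GRCm38.p6 build, each the 250 bases before a start site, were held for 8 of the 10 genes; Tap2 and Nlrc5 had none. The starts of Psmb9 and Tap1 point away from each other and are separated by 225 bases (chr17:34187331-34187555), shown because Psmb9 passed the test below and Tap1 did not. The windows of H2-D1 (chr17:35262844-35263093, plus strand) and H2-K1 (chr17:34000348-34000597, minus strand) are shown because they are alike while the genes' levels were not, and that of Psmb8 (chr17:34197945-34198194, plus strand) because Psmb8 rose. The start sites are those of RefSeq. By the gene bounds used for counting, the windows of Psmb8 and H2-D1 (bounds from 35262730) lie inside the gene, and the shared stretch lies inside Psmb9. Each is written 5′ to 3′ on the gene's strand, the shared stretch on that of Tap1. Capitals mark matches, on either strand, to GAANNGAAA (bound by interferon regulatory factors), TTCNNNGAA (bound by STAT dimers) and GGGATTCCC (a kappaB element).
Psmb9-Tap1: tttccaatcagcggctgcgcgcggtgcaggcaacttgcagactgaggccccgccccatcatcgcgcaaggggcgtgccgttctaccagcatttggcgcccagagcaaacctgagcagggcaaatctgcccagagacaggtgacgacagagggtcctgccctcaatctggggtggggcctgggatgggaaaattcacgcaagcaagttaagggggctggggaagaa
Psmb8: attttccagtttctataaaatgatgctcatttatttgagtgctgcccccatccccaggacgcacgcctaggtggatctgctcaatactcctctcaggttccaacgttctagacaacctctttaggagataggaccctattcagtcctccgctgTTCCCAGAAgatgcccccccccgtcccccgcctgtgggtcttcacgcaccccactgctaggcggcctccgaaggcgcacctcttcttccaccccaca
H2-D1: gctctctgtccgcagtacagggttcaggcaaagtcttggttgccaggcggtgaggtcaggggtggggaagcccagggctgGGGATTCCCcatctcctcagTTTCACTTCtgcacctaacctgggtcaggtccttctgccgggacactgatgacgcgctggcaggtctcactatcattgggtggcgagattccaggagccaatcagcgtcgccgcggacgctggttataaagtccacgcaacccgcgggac
H2-K1: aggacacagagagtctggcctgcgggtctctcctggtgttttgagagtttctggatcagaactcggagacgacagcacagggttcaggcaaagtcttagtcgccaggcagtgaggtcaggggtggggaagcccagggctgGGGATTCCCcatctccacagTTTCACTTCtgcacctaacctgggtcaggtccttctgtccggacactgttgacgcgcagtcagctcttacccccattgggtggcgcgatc

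Over an alignment of 191 bases, the H2-K1 and H2-D1 windows were identical at 167, or 87.4%. Both hold GGGATTCCC followed by TTTCACTTC, the reverse strand of a GAANNGAAA match. In H2-D1 the GAANNGAAA match begins 150 bases before the start, and in the H2-K1 window shown 90 bases. A further H2-K1 window (chr17:34000334-34000583), not shown, was 86.8% identical to that of H2-D1 over 204 aligned bases. There the match begins 104 bases before the start. Psmb8 holds TTCNNNGAA 97 bases before its start, and the Psmb9-Tap1 stretch holds none of the 3. Of 32851 windows of this length over all genes, 6.31% hold GAANNGAAA, 7.02% TTCNNNGAA and 0.301% GGGATTCCC. CCAAT, present in 33.8% of all windows, was found before Psmb9, Tap1, Tapbp, B2m, H2-K1 and H2-D1. TGACG, present in 17.8%, was found before Psmb9, Tap1, B2m, H2-K1 and H2-D1. TNAAGGTCA, the ERR response element (1.14% of windows), and the THAP11/ZNF143 element, bound by HCFC1 partner proteins (1.67%), matched none of these genes' windows. The marked matches do not overlap one another, and a match describes the letters only.

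Total counts per library were 21.4 to 33.2 M. Esrra, checked as a target, was at 12 ± 4.34 CPM (read counts scaled to library size with edgeR's TMM factors) in siERRa libraries and 17.3 ± 4.21 in combined ones, against 47 ± 4.72 in siC libraries (SD, n = 3 each), and passed the test in both (log2 change -1.97 with adjusted p = 0.00702, and -1.44 with adjusted p = 0.00478). Hcfc1 was at 96.2 CPM on average in siHCFC1 libraries and 113 in combined ones, against 173 in siC libraries, lower in every library, but did not pass (adjusted p = 0.0668 and 0.182). With 1 library of the groups compared left out, Hcfc1 passed in 1 of 6 fits in siHCFC1 and 0 of 6 in the combined knockdown. The 1 fit was without siHCFC1 library 2 (log2 change -1.07, adjusted p = 0.0405). In siHCFC1 it also passed with DESeq2 (-0.79, adjusted p = 0.0375) and with limma on TPM (-1.02, adjusted p = 0.0395). With no filter on low counts it passed there too (-0.84, adjusted p = 0.00995). Gapdh stood apart: it was at 568 to 1350 CPM in siERRa, 137 to 932 in siHCFC1 and 70.1 to 1088 in combined libraries, against 62.3 to 115 in siC libraries. The part of Gapdh in the results was not tested. Of 8 hepatocyte markers, Alb and Afp carried most of the summed TPM, 8111 to 10317 in siERRa, 5792 to 7903 in siHCFC1 and 7221 to 9017 in combined libraries, against 4697 to 7766 in siC libraries. Serpina1a was listed at 0 in every library and Ttr in every siC library, and Apoa1 had 0 counts in siHCFC1 libraries 2 and 3 and combined library 3. Hnf4a was lower in combined libraries than in siC libraries (log2 change -1.16, adjusted p = 0.0165), and Apob was higher in siHCFC1 libraries (1.43, adjusted p = 0.041). Apoa1 was at 0.048 CPM in siHCFC1 libraries, against 2.66 in siERRa libraries (adjusted p = 0.0416). With 1 library left out, Hnf4a lost its call without combined library 1 or 2 or siC library 3, Apob without siHCFC1 library 1 or 2 or any siC library, and Apoa1 in each of 6 fits.

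In siC cells the members spanned a wide range of abundance, given in TPM, which scales read counts to gene length and library size. B2m stood at 4600 ± 947 TPM, H2-D1 at 955 ± 207, Tapbp at 121 ± 25.4 and Tap1 at 46.1 ± 9.75 (SD, n = 3). The others were Psmb10 at 19.4 ± 0.978, Nlrc5 at 15.1 ± 2.57, Tap2 at 13.1 ± 2.61, Psmb8 at 11.1 ± 1.92, Psmb9 at 5.16 ± 0.478 and H2-K1 at 0.0336 ± 0.0581 TPM. Nlrc5, Tap2 and Psmb8 overlapped their neighbours in this order, whereas B2m, H2-D1, Tapbp, Tap1, Psmb10, Psmb9 and H2-K1 did not. The order changed in the combined knockdown, where Tap2 averaged 27.6, Psmb8 25.6, Nlrc5 23.8, Psmb10 22.7 and Psmb9 17.6 TPM, with ranges that overlapped from each gene to the next. In bulk libraries such as these, fewer cells expressing a gene and less RNA per cell cannot be told apart.

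Psmb8 and Psmb9 rose when Hcfc1 was targeted, and Psmb8, Psmb9 and Tap2 rose in the combined knockdown; no member passed as lower. A gene passed when its edgeR quasi-likelihood p, adjusted by Benjamini-Hochberg over all 15965 genes, was below 0.05. The fit had no block for the library number. In siERRa against siC, 0 of 9 tested members passed, where 0.438% of all genes passed in either direction; at an unadjusted p below 0.05 there were 4 members, and DESeq2 and limma on TPM gave 0. In siHCFC1 against siC, 2 of 9 passed, both higher, where 2.46% of all genes passed as higher. In the combined knockdown against siC, 3 of 9 passed, all higher, where 2.83% of all genes did. The median log2 change of the 9 members was 0.36 for siERRa, 0.85 for siHCFC1 and 0.83 for the combined knockdown, beside medians over all genes of 0.0066, 0.0024 and -0.006. Every knockdown library lay above every siC library for 2, 6 and 7 of the 9 members in these comparisons, where 7.17%, 11.5% and 13.3% of all genes did so. The members were chosen with earlier results of these data known, so setting them against all genes is not an unbiased test. The 3 comparisons share the siC libraries, so they are not independent of one another. With a block for the library number added to the fit, more members passed in each, where 10.2%, 24.9% and 25.5% of all genes passed. Tapbp then passed as lower in siERRa and in the combined knockdown (adjusted p = 0.00326 and 0.00428). In the authors' deposited table of DESeq2 results, 0, 5 and 6 of the 10 members were higher with an adjusted p below 0.05. The share of all genes below 0.05 there was not computed, and the edgeR shares above do not apply to these counts.

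**Figure D1:**
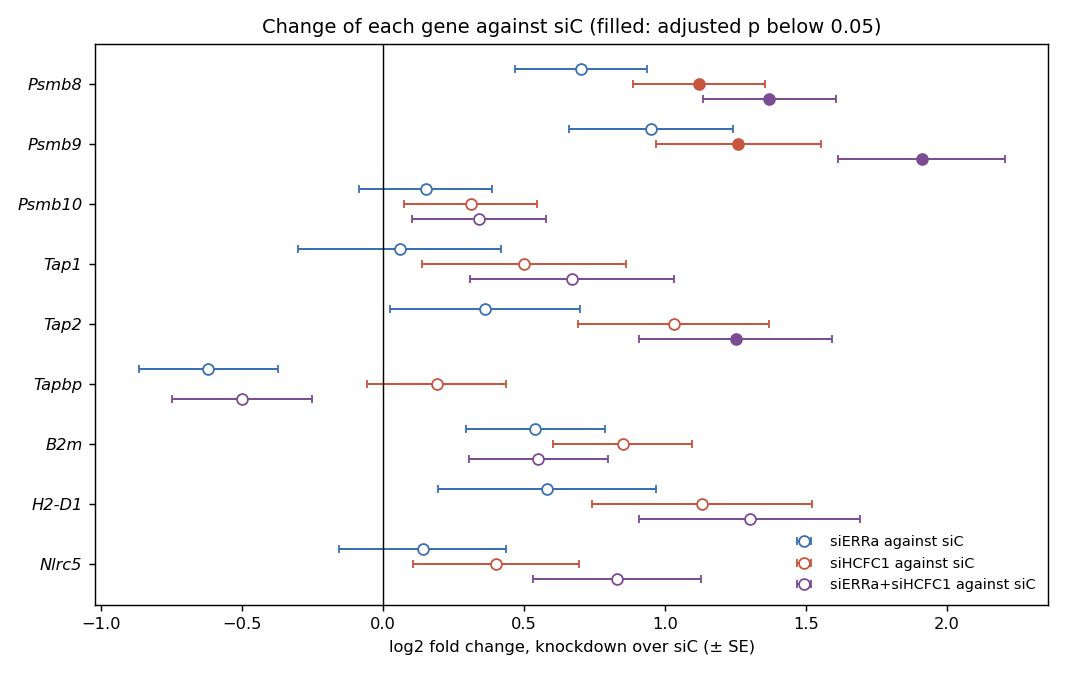
Log2 fold change of the 9 tested members over siC (horizontal axis, ± SE) in the siERRa, siHCFC1 and combined knockdowns; filled points passed the adjusted p of 0.05. Psmb8 and Psmb9 are filled for siHCFC1 and for the combined knockdown and Tap2 for the combined one, and Tapbp is below 0 for siERRa (-0.62) and the combined knockdown (-0.50).

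Psmb8 encodes LMP7, the immunoproteasome subunit with chymotrypsin-like activity. It had 16.5, 14.6 and 14.9 CPM in siERRa libraries 1, 2 and 3, 18, 21.9 and 21.7 in siHCFC1 libraries, and 18.5, 33.3 and 21.7 in combined libraries, against 8.84, 8.53 and 11 CPM in siC libraries. Every knockdown library was above every siC library, and combined library 2 was the highest. The counts behind these values were 342 to 683 in knockdown libraries and 207 to 276 in siC libraries. Psmb8 rose 2.17-fold in siHCFC1 (log2 change 1.12, SE 0.235, adjusted p = 0.012) and 2.58-fold in the combined knockdown (1.37, SE 0.236, adjusted p = 0.00368). In siERRa the log2 change was 0.70 (SE 0.234, adjusted p = 0.267). With 1 library left out, Psmb8 still passed in the combined knockdown in 6 of 6 fits and in siHCFC1 in 4 of 6; without siC library 1 or 2 it did not pass there. Gm20496, annotated on the opposite strand, overlaps 14.7% of its exon bases, and the library kit does not mark strand, so reads of the 2 cannot be told apart there.

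Psmb9 encodes LMP2, the caspase-like site's replacement. It had 9.65, 8.55 and 16.1 CPM in siERRa libraries, 12.9, 17.8 and 11.9 in siHCFC1 libraries, and 15.4, 26.4 and 24.7 in combined libraries, against 6.45, 5.69 and 5.6 CPM in siC libraries. No knockdown library came down to the siC range, and combined libraries 2 and 3 were the highest of all 12. Psmb9 rose 2.4-fold in siHCFC1 (log2 change 1.26, SE 0.292, adjusted p = 0.0195) and 3.75-fold in the combined knockdown (1.91, SE 0.296, adjusted p = 0.00196), the largest change of any member. In siERRa its log2 change was 0.95 (SE 0.291, adjusted p = 0.2). The combined call held in 6 of 6 fits with a library left out. The siHCFC1 call held in 2 of 6 and was lost without siHCFC1 library 2 or without siC library 1, 2 or 3 (log2 change 1.08 to 1.39 over the 6 fits), and limma on TPM gave adjusted p = 0.0646. Tap1 overlaps 5.79% of the exon bases of Psmb9 on the opposite strand.

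Psmb10 encodes MECL-1, the third inducible subunit, which replaces the trypsin-like site. It had 8.57, 12.4 and 13.6 CPM in siERRa libraries, 12.4, 11.1 and 15.2 in siHCFC1 libraries, and 11.4, 12.5 and 15.4 in combined libraries, against 10, 10.4 and 10.7 CPM in siC libraries. The siHCFC1 and combined libraries lay just above the siC range, and siERRa library 1 lay below it. The log2 changes of Psmb10 were 0.15, 0.31 and 0.34 for siERRa, siHCFC1 and the combined knockdown (SE 0.237 each), with adjusted p of 0.933, 0.519 and 0.473.

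The constitutive partners did not pass. Of Psmb5, Psmb6 and Psmb7, 0 of 3 passed in any knockdown against siC by edgeR, DESeq2 or limma on TPM; at an unadjusted p below 0.05 there was 1, in siHCFC1. Their log2 changes ran from 0.056 to 0.25 in siERRa, -0.49 to 0.37 in siHCFC1 and -0.20 to 0.32 in the combined knockdown. As a ratio of TPM, Psmb8 was 12.6 ± 2.74% of Psmb5 in siERRa, 24 ± 3.23% in siHCFC1 and 24.7 ± 12.4% in combined libraries, against 7.88 ± 1.05% in siC libraries (SD, n = 3 each). Psmb5 itself averaged 143 TPM in siERRa, 91.1 in siHCFC1 and 115 in combined libraries, against 142 in siC libraries, so both terms of this ratio differed in siHCFC1, although Psmb5 did not pass. Psmb9 was 5.97 ± 0.47%, 7.67 ± 2.92% and 12.4 ± 4.29% of Psmb6 in these knockdowns, against 3.3 ± 0.437% in siC libraries. For both ratios the lowest knockdown library was above the highest siC library, 10.3% against 8.76% for Psmb8 and 5.11% against 3.66% for Psmb9. The ratio of Psmb10 to Psmb7 was 35.5 ± 13%, 35 ± 3.26% and 36.8 ± 6.25% in the knockdowns, against 36.2 ± 4.09% in siC libraries, with overlapping ranges. In each group Psmb9 and Psmb8 were therefore less abundant than their constitutive partners by TPM.

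**Figure D2:**
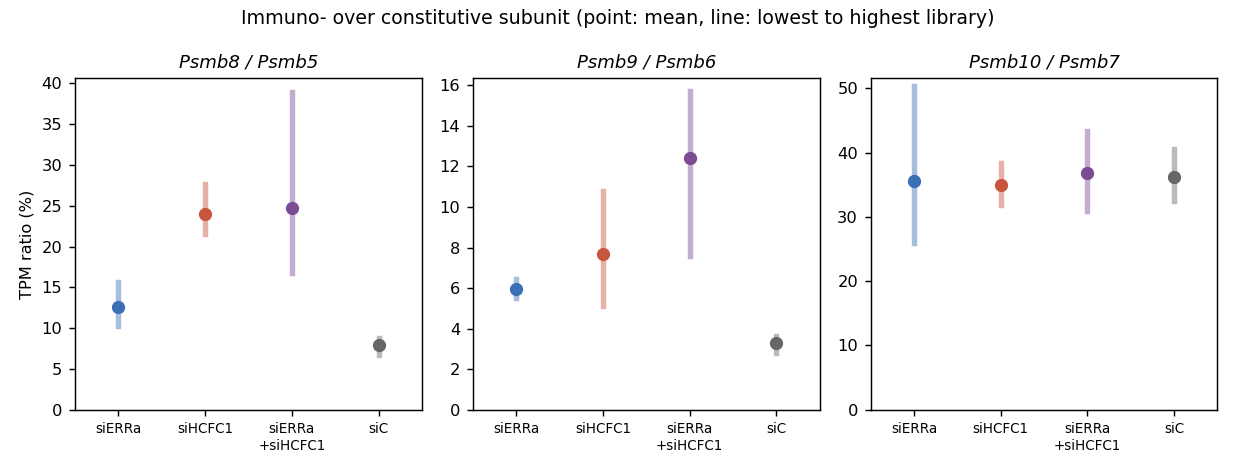
TPM of each inducible catalytic subunit as a percentage of its constitutive partner (vertical axis) in the 4 groups; points are means of 3 libraries and lines run from the lowest to the highest library. Psmb8 over Psmb5 was 24% in siHCFC1 and 7.88% in siC, and Psmb10 over Psmb7 stayed between 35% and 36.8% on average.

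The rest of the proteasome gave few calls. Of 11 other 20S subunits and 17 subunits of the 19S regulatory cap, 0 passed against siC for any siRNA by edgeR, DESeq2 or limma on TPM; at an unadjusted p below 0.05 there were 0 of the 20S subunits in each knockdown, and of the 19S subunits 1 for siERRa, 2 for siHCFC1 and 0 for the combined knockdown. Of 9 activator and assembly genes 0 passed against siC by edgeR, with 3, 2 and 2 at an unadjusted p below 0.05, and DESeq2 gave 2 and limma 1 in siHCFC1, and both 0 in siERRa and the combined knockdown. The medians of the 20S list were 0.081, -0.10 and -0.09. When siHCFC1 was set against siERRa, where 10.4% of all genes passed, the proteasome assembly chaperones Psmg1 (log2 change -1.50, SE 0.42, adjusted p = 0.0343) and Psmg2 (-0.98, SE 0.184, adjusted p = 0.00419), the activator subunit Psme3 (-0.67, SE 0.184, adjusted p = 0.0304) and the 19S subunit Psmd6 (-0.74, SE 0.194, adjusted p = 0.0259) were lower. Against siC, the siERRa log2 changes of Psmg1, Psmg2, Psme3 and Psmd6 were 0.04, 0.41, 0.41 and 0.46. Their siHCFC1 changes were -1.46, -0.58, -0.26 and -0.28, so part of each difference from siERRa lay on the siERRa side, most of it for Psme3 and Psmd6. Psmg2 was also lower in the combined knockdown against siERRa (-0.91, SE 0.183, adjusted p = 0.0152), where 3.24% of all genes passed. With 1 library left out, Psmg2 kept its siHCFC1 call in 6 of 6 fits. Psmg1 and Psmd6 lost theirs without siERRa library 1 or 3 or siHCFC1 library 2 or 3, Psme3 without those or siHCFC1 library 1, and Psmg2 its combined call without siERRa library 1 or 3 or combined library 2 or 3.

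Tap1, the transporter subunit whose start adjoins that of Psmb9, did not pass. It had 69.8, 112 and 66.9 CPM in siERRa libraries, 81.1, 172 and 84.8 in siHCFC1 libraries, and 90.4, 202 and 87.9 in combined libraries, against 72.6, 102 and 64 CPM in siC libraries. Library 2 was the highest of every group, and siC library 2 overlapped each knockdown. Log2 changes of Tap1 were 0.058, 0.50 and 0.67 (SE 0.36, 0.361 and 0.362), with adjusted p of 0.987, 0.486 and 0.313, for siERRa, siHCFC1 and the combined knockdown. The siERRa value lies near 0 and was -0.21 without siERRa library 2.

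Tap2, the other transporter subunit, rose in the combined knockdown. It had 16.2, 23.1 and 20.5 CPM in siERRa libraries, 23.4, 50.8 and 21.3 in siHCFC1 libraries, and 29.3, 53.1 and 28.5 in combined libraries, against 15.4, 19.3 and 12 CPM in siC libraries. All siHCFC1 and combined libraries were above siC, library 2 far above the other 2 in each, while siERRa overlapped siC. Tap2 rose 2.37-fold in the combined knockdown (log2 change 1.25, SE 0.341, adjusted p = 0.0413), and the log2 change in siHCFC1 was 1.03 (SE 0.339, adjusted p = 0.0877), which passed with DESeq2 (adjusted p = 0.0348) and with no filter on low counts (adjusted p = 0.00204). The combined call was lost in each of the 6 fits with a library left out, that is, without combined library 1, 2 or 3 or siC library 1, 2 or 3, and limma on TPM gave adjusted p = 0.0545. It held when the libraries numbered 2 were left out of every group together (log2 change 1.08, adjusted p = 0.0211), a fit chosen after seeing the data. Gm15821 and Gm20496, on the opposite strand, overlap 18.5% of its exon bases.

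Tapbp encodes tapasin, which holds empty class I molecules at the transporter. It had 72.8, 90.9 and 80.5 CPM in siERRa libraries, 131, 191 and 107 in siHCFC1 libraries, and 81.7, 111 and 72.5 in combined libraries, against 117, 160 and 99.5 CPM in siC libraries. Every siERRa library was below every siC library, a pattern seen in 9.16% of all genes, and the other groups overlapped siC. The log2 change was -0.62 in siERRa (SE 0.248, adjusted p = 0.376), 0.19 in siHCFC1 (SE 0.247, adjusted p = 0.743) and -0.50 in the combined knockdown (SE 0.248, adjusted p = 0.266), so Tapbp did not pass in any. Without siHCFC1 library 2 the siHCFC1 value was -0.06. Gm19412, on the opposite strand, and Zbtb22 overlap 29% of its exon bases, the largest share of any member.

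Among 10 other genes of peptide trimming and loading, 2 passed as higher in siHCFC1 by edgeR, where 2.46% of all genes did. DESeq2 gave 2 there and limma on TPM 1. In siERRa and the combined knockdown 0 passed by edgeR (0 and 1 at an unadjusted p below 0.05, 0 and 1 by DESeq2, and 0 by limma on TPM). Hspa5, the endoplasmic reticulum chaperone BiP, stood at 4620 CPM on average in siHCFC1 libraries, against 1530 in siC libraries, and rose 3.02-fold (log2 change 1.59, SE 0.281, adjusted p = 0.00414). Calr, calreticulin of the peptide-loading complex, stood at 2031 CPM, against 961 in siC libraries (1.08, SE 0.296, adjusted p = 0.0437). The Hspa5 call held in 6 of 6 fits with a library left out and the Calr call in 2, being lost without siHCFC1 library 2 or 3 or siC library 1 or 3.

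**Figure D3:**
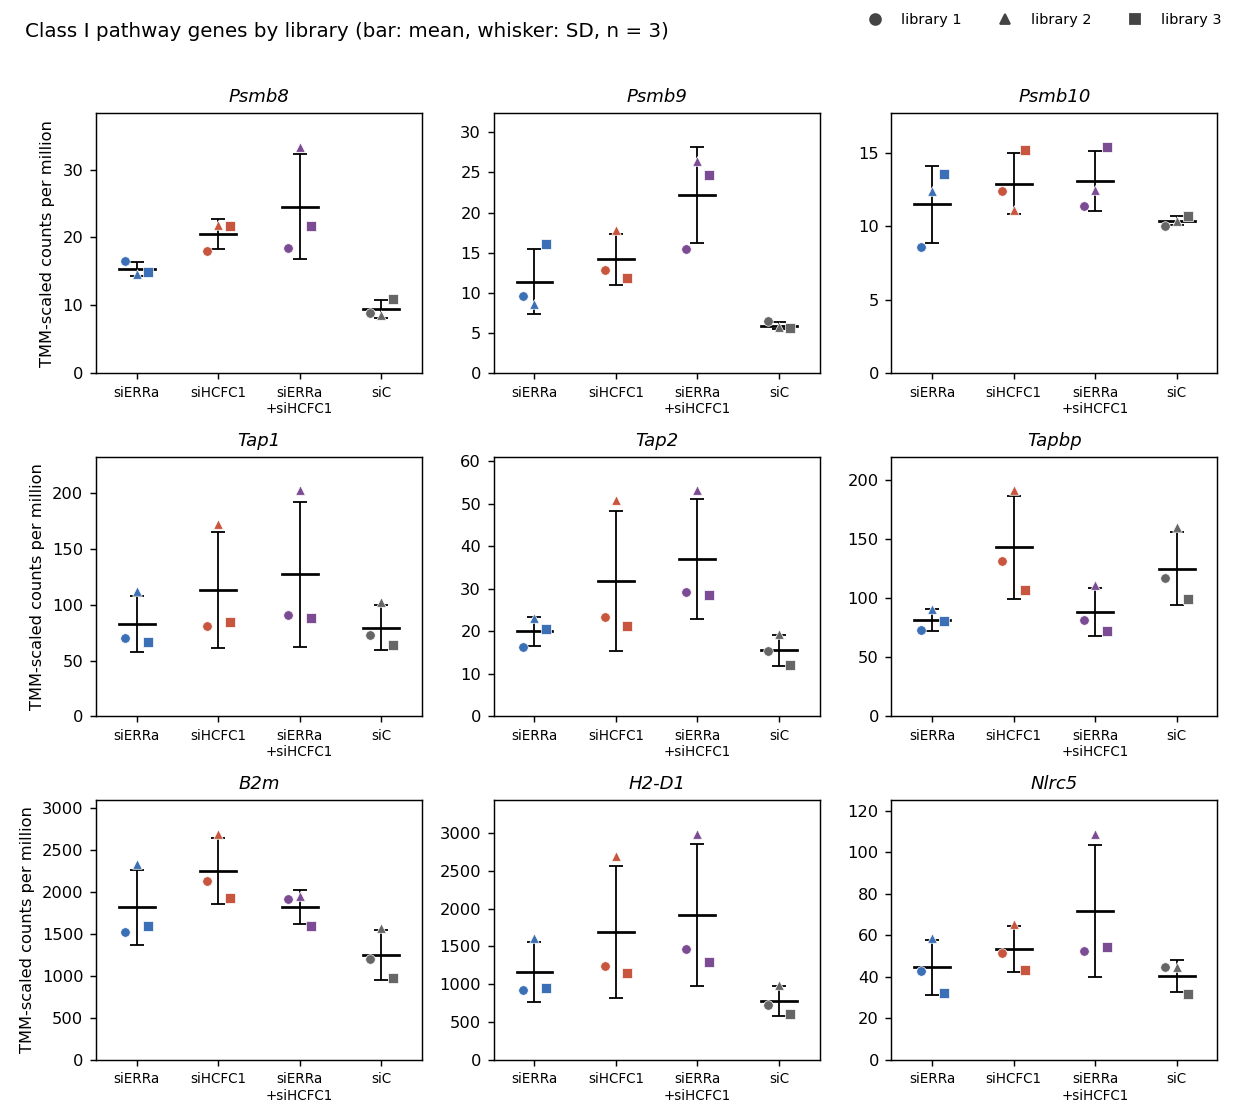
TMM-scaled CPM (vertical axes, from 0) of the 9 tested members in each library, with the group mean and SD. Psmb8 and Psmb9 of every knockdown library lie above the siC libraries, and the triangles of library 2 lie highest in all groups for Tap1, Tap2, Tapbp, B2m and H2-D1.

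B2m, the light chain that all classical class I molecules need, was the most abundant member. It had 1527, 2329 and 1589 CPM in siERRa libraries, 2132, 2694 and 1933 in siHCFC1 libraries, and 1921, 1949 and 1590 in combined libraries, against 1198, 1567 and 972 CPM in siC libraries. The siHCFC1 and combined libraries were all above siC, and siERRa library 1 was below siC library 2. The log2 changes of B2m were 0.54 in siERRa (SE 0.246, adjusted p = 0.46), 0.85 in siHCFC1 (SE 0.247, adjusted p = 0.0522) and 0.55 in the combined knockdown (SE 0.246, adjusted p = 0.215), so B2m did not pass. It passed in siHCFC1 with DESeq2 (0.90, adjusted p = 0.00404) and with median-ratio size factors (0.90, adjusted p = 0.0495). It also passed without siC library 2 (1.07, adjusted p = 0.0481) or siERRa library 2 (0.87, adjusted p = 0.0314), the latter a library outside that comparison. With 1 library of the groups compared left out, B2m passed in siHCFC1 in 1 of 6 fits. With limma on TPM it did not pass.

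H2-D1, the abundant classical heavy chain, had 927, 1616 and 943 CPM in siERRa libraries, 1240, 2700 and 1143 in siHCFC1 libraries, and 1460, 2989 and 1292 in combined libraries, against 727, 992 and 609 CPM in siC libraries. The siHCFC1 and combined libraries were all above siC, and library 2 was the highest of each group. The log2 change of H2-D1 was 0.58 in siERRa (SE 0.386, adjusted p = 0.703), 1.13 in siHCFC1 (SE 0.39, adjusted p = 0.105) and 1.30 in the combined knockdown (SE 0.391, adjusted p = 0.0607), and none passed. With 1 library of the groups compared left out, H2-D1 passed in 0 of 6 fits in siHCFC1 and 0 of 6 in the combined knockdown. With limma on TPM it passed in neither. H2-D1 passed with DESeq2 in siHCFC1 (1.18, adjusted p = 0.0255) and in the combined knockdown (1.35, adjusted p = 0.00806). With no filter on low counts it passed in both (adjusted p = 0.00322 and 0.000365). In the combined knockdown it also passed when only the groups compared were fitted (adjusted p = 0.0358), without siERRa library 2 (adjusted p = 0.0427) or without siHCFC1 library 2 or 3 (0.0249 and 0.0492), libraries outside that comparison that enter the fit through the shared estimate of spread and the gene filter. Without the libraries numbered 2 of every group, a fit chosen after seeing the data, it passed in siHCFC1 (0.84, adjusted p = 0.0149) and in the combined knockdown (1.05, adjusted p = 0.00577), as did B2m (0.91, adjusted p = 0.0129, and 0.70, adjusted p = 0.0354). Of the 31-base words in H2-D1 transcripts, 26.9% occur in other genes, 13.8% in H2-K1. The part of reads shared between class I genes in its level was not tested.

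H2-K1, a further classical heavy chain, was near 0 in every library. It gathered 17 counts over the 12 libraries, beside 416532 for H2-D1, among 311 M in all. In library order its counts were 1, 0 and 4 in siERRa, 1, 2 and 0 in siHCFC1, and 0, 7 and 0 in the combined knockdown, against 0, 0 and 2 in siC. It was at 0 in 6 libraries and was not tested. Of its 31-base transcript words, 22.8% occur in other genes, 11.1% in H2-D1. The part of shared reads in its near-0 counts was not tested. Over the aligned stretch, the promoter window of H2-K1 shown above is 87.4% identical to that of H2-D1.

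**Figure D4:**
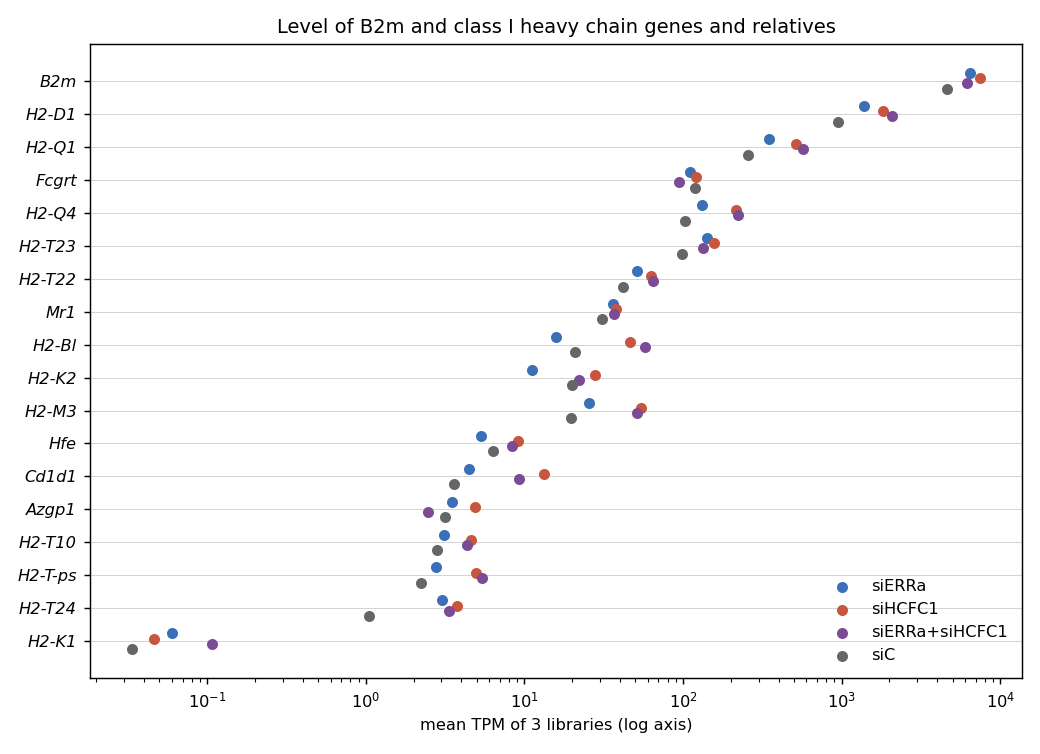
Mean TPM of 3 libraries (log horizontal axis) in each group for B2m, H2-D1, H2-K1 and those of the other class I heavy chain genes and relatives that reached 1 TPM in siC. B2m and H2-D1 were the most abundant, at 4600 and 955 TPM in siC. H2-K1, drawn although below 1 TPM, was at 0.0336 TPM. Other class I genes below 1 TPM in siC, such as H2-Q7 at 0.021 TPM, are not drawn.

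Of 23 other class I genes and relatives in the abundance table, 17 were tested. In siERRa against siC 0 passed by edgeR, DESeq2 or limma on TPM, with 0 at an unadjusted p below 0.05. In siHCFC1 and in the combined knockdown 5 passed in each by edgeR, all higher, where 2.46% and 2.83% of all genes passed as higher. DESeq2 gave 7 in siHCFC1 and 6 in the combined knockdown, and limma on TPM 4 and 3. The medians of the 17 genes were 0.26, 0.91 and 1.28 on the log2 scale in siERRa, siHCFC1 and the combined knockdown. Cd1d1, which presents lipids, stood at 12.1 CPM in siHCFC1 and 8.41 in combined libraries, against 2.92 in siC libraries (log2 changes 2.05 and 1.52, adjusted p = 0.0125 and 0.0483). H2-M3, which binds formylated peptides, stood at 28.2 and 26 CPM, against 8.93 in siC libraries (1.66 and 1.54, adjusted p = 0.022 and 0.03). H2-Q1 stood at 522 and 569 CPM, against 229 in siC libraries (1.19 and 1.31, adjusted p = 0.0241 and 0.0139), and H2-Bl at 27.8 and 34.2 CPM, against 11 in siC libraries (1.33 and 1.63, adjusted p = 0.0318 and 0.0108). H2-T22, named after its values were seen, was the other gene that passed in both, at 62.5 and 65 TPM, against 41.6 TPM in siC libraries. In siHCFC1, Cd1d1, H2-M3, H2-Q1 and H2-Bl did not pass without siC library 1 or 3, nor the last 3 of them without siHCFC1 library 2. In the combined knockdown, H2-Bl did not pass without siC library 3, H2-Q1 without siC library 1 or 3 or combined library 2, H2-M3 without any siC library or combined library 2, and Cd1d1 without siC library 1 or 3 or any combined library. As for H2-D1, words shared with other genes made up 24.1% of H2-Q1 and 21.5% of H2-Bl.

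Nlrc5, the class I transactivator, did not pass in any knockdown. It had 43, 58.5 and 32 CPM in siERRa libraries, 51.3, 65.3 and 43.3 in siHCFC1 libraries, and 52.5, 109 and 54.5 in combined libraries, against 44.7, 44.6 and 31.6 CPM in siC libraries. The combined libraries were all above siC, by the widest margin in library 2, and the single knockdowns overlapped siC. Its log2 changes were 0.14, 0.40 and 0.83 (SE 0.296, 0.296 and 0.297), with adjusted p of 0.962, 0.501 and 0.113 in siERRa, siHCFC1 and the combined knockdown. With no filter on low counts the combined value passed (0.83, adjusted p = 0.00934). It also passed with the filter and a block for the library number (0.78, adjusted p = 0.000959). The siERRa value was below 0 in some fits, -0.10 without siERRa library 2.

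Among other regulators of class I transcription, Irf7, an interferon regulatory factor, rose in siHCFC1. It stood at 19.9 CPM in siHCFC1 libraries, against 8 in siC libraries (log2 change 1.31, SE 0.317, adjusted p = 0.024), and its call was lost without siHCFC1 library 1, 2 or 3 or siC library 1. Against siERRa, where 10.4% of all genes passed, siHCFC1 libraries were also higher in Irf7 (1.66, adjusted p = 0.00502) and Stat2 (1.12, adjusted p = 0.0176). They were lower in Rfxank, an RFX subunit (-0.90, adjusted p = 0.0446). Combined libraries were higher in Irf7 than siERRa ones (1.35, adjusted p = 0.0335), where 3.24% of all genes passed. Against siC, Stat2 was at -0.72 in siERRa and 0.40 in siHCFC1 (adjusted p = 0.346 and 0.442). Most of its difference thus lay on the siERRa side. Of the calls against siERRa, that of Irf7 in siHCFC1 held with each library left out. Stat2 lost its call without siERRa library 1, Rfxank without siERRa library 1, 2 or 3 or siHCFC1 library 1 or 2, and Irf7 in the combined knockdown without siERRa library 1 or 2 or combined library 1 or 3.

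Of 10 interferon genes, 8 were listed at 0 TPM in every library. Ifnb1 was at 2.46 TPM in 1 siHCFC1 library and at 0 in the rest, and Ifne reached 1.67 TPM; none passed the filter on low counts. Of 13 interferon receptors and kinases, 0 passed against siC by edgeR in any knockdown, with 0, 2 and 1 at an unadjusted p below 0.05, and DESeq2 gave 0, 1 and 1 and limma on TPM 0. In siHCFC1 against siERRa, where 10.4% of all genes passed, the interferon feedback gene Usp18 (log2 change 0.82, adjusted p = 0.0352) and the lambda interferon receptor chain Ifnlr1 (1.06, adjusted p = 0.0484) were higher. Usp18 averaged 82.2 CPM in siHCFC1, 46.4 in siERRa and 51.7 in siC libraries. Ifnlr1 averaged 40, 19.2 and 29.3 CPM in the same order, so its siERRa mean was below siC. Usp18 did not pass without siERRa library 1 or 2 or siHCFC1 library 2 or 3, nor Ifnlr1 without siERRa library 1 or 3 or siHCFC1 library 1, 2 or 3.

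Markers of cells that carry much class I were looked at beside these genes. The T and NK cell markers summed to at most 0.0313 TPM in a siERRa library and 0 in all siHCFC1, combined and siC libraries, with Nkg7, Cd3d, Cd8a and Ncr1 listed at 0 throughout. The B cell markers summed to at most 0.418 TPM in siERRa, 0 in siHCFC1 and 0 in combined libraries, against at most 0.758 in siC libraries. Of 6 macrophage markers, C1qa was at 0 and Adgre1 and Ptprc below 1 TPM everywhere, while the sum was 109 to 152 TPM in siERRa, 80.5 to 141 in siHCFC1 and 68.9 to 104 in combined libraries, against 167 to 225 in siC libraries. Cd68 fell in the combined knockdown (log2 change -1.05, adjusted p = 0.0321), a call kept in 1 of 6 fits with a library left out, without combined library 2. Csf1r rose in siHCFC1 (6.44 CPM, against 0.837 in siC libraries, adjusted p = 0.0205, lost without siHCFC1 library 1 or siC library 3) and in the combined knockdown (4.34 CPM, adjusted p = 0.049, lost in each of 6 fits with a library left out). The dendritic cell and MHC class II list summed to 18.6 to 30.4 TPM in siERRa, 22.1 to 47.6 in siHCFC1 and 25.1 to 32.6 in combined libraries, against 22.3 to 27.5 in siC libraries, with Itgax at 0 throughout and 0 of 3 tested genes called by edgeR, DESeq2 or limma on TPM in any of these comparisons (1 at an unadjusted p below 0.05, in the combined knockdown). Endothelial markers summed to at most 0.676 TPM in siERRa, 0.325 in siHCFC1 and 0.782 in combined libraries, against 0.137 in siC libraries, with Cdh5 and Kdr at 0 throughout. The fibroblast and stellate list, carried by Dcn, summed to 1548 to 2263, 2134 to 3442 and 2044 to 2478 TPM in siERRa, siHCFC1 and combined libraries, against 1361 to 2160 in siC libraries, with Pdgfrb and Col1a2 below 1 TPM. Of its 2 tested genes 0 passed against siC by edgeR or limma on TPM; in siHCFC1, 1 had an unadjusted p below 0.05 and 1 passed with DESeq2. The part of Csf1r, Cd68 and Dcn in the class I values was not tested.

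Set against each other, the knockdowns gave no member that passed. In the combined knockdown against siERRa 0 of 9 passed by edgeR (4 at an unadjusted p below 0.05, 1 by DESeq2 and 0 by limma on TPM), where 3.24% of all genes passed; all 9 log2 changes were above 0, with a median of 0.67, and Psmb9 had the largest at 0.95 (SE 0.287, adjusted p = 0.0916; without siERRa library 3 it was 1.29, adjusted p = 0.0444). In the combined knockdown against siHCFC1 0 of 9 passed (2 at an unadjusted p below 0.05, 0 by DESeq2 or limma on TPM), where 0.00626% of all genes passed, with Psmb9 at 0.64 (SE 0.286, adjusted p = 0.668) and Tapbp at -0.69 (SE 0.248, adjusted p = 0.561). In siHCFC1 against siERRa 0 of 9 passed (1 at an unadjusted p below 0.05, 1 by DESeq2 and 0 by limma on TPM), where 10.4% of all genes passed; Tapbp came nearest, higher in every siHCFC1 library (0.81, SE 0.249, adjusted p = 0.0506), a pattern seen in 12% of all genes. Tapbp passed there without siHCFC1 library 3 (1.00, adjusted p = 0.0324), combined library 2 (0.80, adjusted p = 0.0445) or siC library 2 (0.83, adjusted p = 0.0432). The interaction, which asks whether the combined log2 change departs from the sum of the single ones, passed for 0 of 9 members and 0% of all genes (1 member at an unadjusted p below 0.05, 0 by DESeq2 or limma on TPM). B2m had the largest departure, -0.85 (SE 0.347, adjusted p = 1), and 7 of the 9 estimates were below 0, with a median of -0.14 beside 0.0086 over all genes.

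For part of the set, the order of libraries within a group went with the library number. Library 2 was the highest of its group in all 4 groups for Tap1, Tap2, Tapbp, B2m and H2-D1, 5 of 9 members, where 16.3% of all tested genes (2605) showed this. For Nlrc5 it was highest in 3 of 4 groups, for Psmb8 and Psmb9 in 2 and for Psmb10 in 0. Without the libraries numbered 2 of every group, a fit chosen after seeing the data, 3 members passed in siHCFC1 (Psmb8, B2m and H2-D1), where 5.72% of all genes passed, and 5 in the combined knockdown (Psmb8, Psmb9, Tap2, B2m and H2-D1), where 5.79% did. Psmb9 did not pass in siHCFC1 in that fit (log2 change 1.04, adjusted p = 0.0854).

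**Figure D5:**
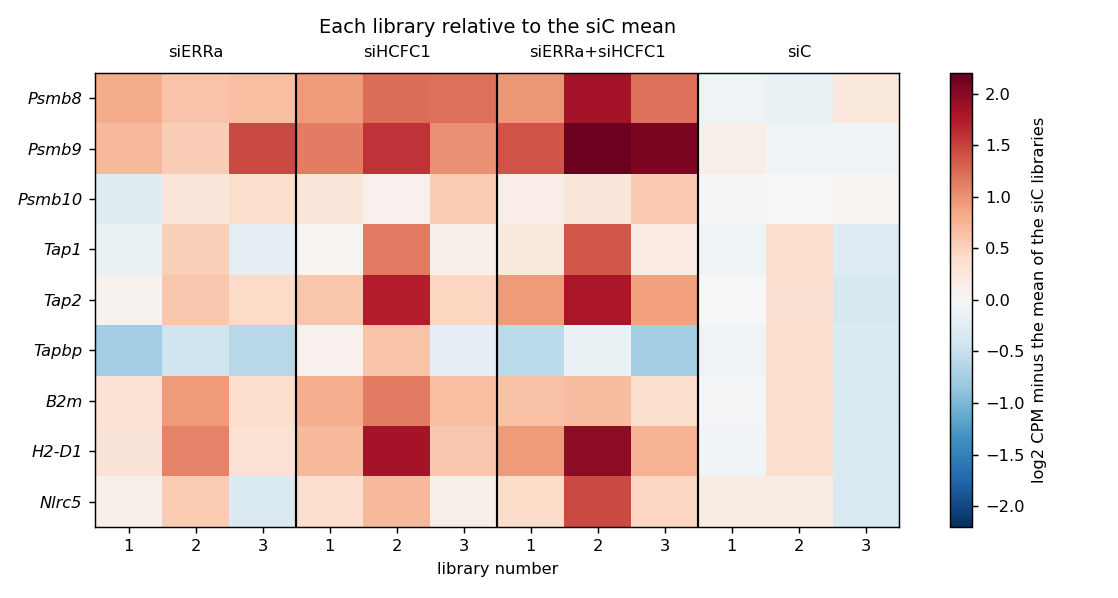
Log2 CPM of each of 9 members in each of 12 libraries minus the mean of the siC libraries (colour; red above, blue below), with libraries grouped by siRNA and numbered. Library 2 of siHCFC1 and of the combined knockdown is reddest for Tap1, Tap2 and H2-D1, and Tapbp is blue in the siERRa libraries.

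Over the 12 libraries, 3 from each of the 4 groups, Tap2 and H2-D1 lay closest to the mean profile of the 9 members (r = 0.98 each) and Tapbp farthest (r = 0.29). The mean includes the member it is set against, which raises r. Differences between groups and between libraries within a group both enter r. The 5 other genes most like that mean by Pearson r of log2 CPM were H2-Q4, a further class I heavy chain, Uba7, which activates the interferon-induced modifier ISG15, Stab1, a scavenger receptor, Sil1, an exchange factor of BiP, and Aga, a lysosomal enzyme (r = 0.98 each). The 5 most like Psmb8 were Trim12c (r = 0.93), S1pr1 (0.92), Trim30a (0.92), Trim12a (0.91) and Gbp4, a guanylate-binding protein (0.91). Psmb9 lay next to Psmb8 among the members (r = 0.89), while Tap1, whose start adjoins that of Psmb9, had r = 0.58 with Psmb8.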

How the data were processed

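RNA-seq of 12 Hepa 1-6 libraries was used as deposited. Per the submitters' processing notes, HISAT2 2.0.5, featureCounts 1.5.0-p3, DESeq2 1.20.0 and mm10 were used. The authors' deposited comparison tables hold raw counts per gene, their own log2 fold changes and p-values; another deposited table holds TPM. The 5 count tables were merged (377781 shared cells, 0 different; 5451 blanks set to 0); 60 per-sample columns were not used. One TPM column per group carries a number no count library has, so TPM is given by group. The members and lists were chosen with earlier results of these data known. Named genes are all members, Esrra, Hcfc1, up to 3 called genes per list and comparison and the 5 most similar genes to each of 2 profiles. Of 24326 genes, the 15965 that passed filterByExpr entered edgeR's quasi-likelihood test (edgeR 4.0.16, R 4.3.3): TMM scaling, a coefficient for each of the 4 groups, 8 residual degrees of freedom, and Benjamini-Hochberg adjustment. The fits were tested on simulated data beforehand. Alternatives used DESeq2 1.42.0, limma 3.58.1 on log2(TPM + 0.5), other scaling and filters, a block and left-out libraries. Within groups, no libraries were copies (lowest chi-square per degree of freedom 40). Shared 31-base words and exon overlaps came from GENCODE vM21. Part of the list of regulators is not reported here.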

Additional observations from a re-analysis of the deposited data

How the results depend on the processing

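Counts are of members past an adjusted p of 0.05. The share of all genes past it differs between fits and is not given in this paragraph. The counts therefore show how the calls depend on the fit and are not a result about the members. Leaving out each library in turn gave 0 to 0 in siERRa against siC, 0 to 3 in siHCFC1 against siC, 2 to 4 in the combined knockdown against siC, 0 to 1 in the combined knockdown against siERRa, 0 to 0 in the combined knockdown against siHCFC1, 0 to 1 in siHCFC1 against siERRa and 0 to 0 for the interaction. With no filter on low counts, 4 passed in siHCFC1 and 5 in the combined knockdown against siC, 1 in the combined knockdown against siERRa and 1 in siHCFC1 against siERRa. DESeq2 gave 5 in siHCFC1 against siC, 1 in the combined knockdown against siERRa and 1 in siHCFC1 against siERRa. Limma on log2(TPM + 0.5), on log2(TPM + 0.1) and on log2(TPM + 0.5) with no filter each gave 1 in siHCFC1 against siC. Without the libraries numbered 3 of every group siHCFC1 against siC gave 0. Without those numbered 2, chosen after seeing the data, the combined knockdown gave 5 against siC and siHCFC1 gave 1 against siERRa. Median-ratio size factors and fitting only the groups compared left every count within 1.5 times of the reported one.

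Same-numbered libraries deviated together over 0.1 in 12 of 18 pairs (r from 0.0326 to 0.373, and for number 1 at most 0.0958). In 35 of 36 checks a library correlated best with its own number. The numbers were not taken as pairing in the reported fit, which leaves differences that go with the number in its spread. With the number as a block, members past the threshold were 5 in siERRa against siC (Psmb8, Psmb9, B2m and H2-D1 higher, Tapbp lower at -0.59, adjusted p = 0.00326), 6 in siHCFC1 against siC (Psmb8, Psmb9, Tap1, Tap2, B2m and H2-D1 higher) and 8 in the combined knockdown against siC (those 6 and Nlrc5 higher, Tapbp lower at -0.50, adjusted p = 0.00428), where 10.2%, 24.9% and 25.5% of all genes passed. They were 6 in the combined knockdown against siERRa (20% of all genes), 1 in it against siHCFC1 (3.52%), 5 in siHCFC1 against siERRa (29.8%) and 1 for the interaction (B2m, -0.84; 0.144%). Hcfc1 passed in siHCFC1 (adjusted p = 0.00118) and in the combined knockdown (adjusted p = 0.0107) against siC.

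Values near 0 changed sign. Tap1 in siERRa against siC (0.058; highest with a library left out, 0.28) was -0.21 without siERRa library 2, -0.0019 without siC library 1, -0.073 without siC library 3, and -0.0036, -0.0038 and -0.0036 in the limma fits. Nlrc5 in siERRa (0.14; highest 0.34) was -0.10 without siERRa library 2, -0.0039 without siC library 3 and -0.025 without the libraries numbered 2. Tapbp in siHCFC1 (0.19; highest 0.42) was -0.06 without siHCFC1 library 2. The cause of these changes was not tested. With 3 libraries a group and 140 to 742 counts of Psmb9 per library, precision was limited by the spread between libraries.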
